A study of Mus musculus with 12 samples.

Results

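The genes described here are the tumour suppressor Trp53, its paralogs Trp63 and Trp73, the p53 inhibitors Mdm2 and Mdm4, the deubiquitinase gene Usp7 and the neighbouring gene Wrap53. These 7 genes of 52550 gene entries were chosen by name, with earlier results of the same libraries, including the level of Trp53, in view. Their levels are therefore given as a description. Where the fit over all genes called one of them (adjusted p under 0.05), the call is counted beside the share of all genes called, and it supports nothing about genes chosen in this way. The RNA came from D2A1 and D2.OR, which are mouse mammary carcinoma cell lines that arose as separate tumours. Cells of both lines were grown either on plastic (2D) or in a Matrigel-on-top assay (3D), and the labels name no drug, added gene or deletion. Each of the 4 groups, D2A1 2D, D2A1 3D, D2.OR 2D and D2.OR 3D, holds 3 libraries, and each group has 1 library in each of 3 batches, where a batch is the replicate number in the labels. Each cell line is a single line, and the wells of a line were pooled before RNA extraction, so the p-values below measure the spread between these pools. The study used this pair of lines to examine tumour cell dormancy.

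p53 is a transcription factor that is made continuously and is destroyed by Mdm2, a ubiquitin ligase which is itself a p53 target. Mdm4 binds the transactivation domain of p53 and inhibits it, and Usp7 removes ubiquitin from both p53 and Mdm2. Upon DNA damage or oncogene signalling, kinases and Mdm2 inhibitors such as Arf let p53 accumulate, and it then switches on genes for cell cycle arrest and cell death. Control of p53 is therefore largely at the protein level, which these RNA data do not measure. The paper could not detect p53 protein by immunoblot in either cell line grown on plastic. A drug that stabilizes p53 did not raise the RNA of the p53 target genes tested there in either line. From this the paper proposes that neither line contains functional p53. The levels of Trp53 RNA given below are therefore not levels of p53 protein. The paralogs p63 and p73 bind similar sites, and p63 is best known from basal epithelial cells, including the basal layer of the mammary gland.

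The libraries held 47589611 to 73325069 expected counts. Of the 7 genes, 6 passed the filter on low counts, and Trp73 did not. The number of genes called for 3D against 2D in D2A1 depended on single libraries: it was 586 with all of them, 5237 without replicate 1 of D2A1 2D, and 0 without replicate 2 of D2A1 2D or of D2A1 3D or without replicate 3 of D2A1 3D. The labelled cell type was checked against marker genes. Krt18 was detected in both lines (92.7 to 294 TPM in D2A1 and 125 to 666 TPM in D2.OR), and Krt8 was at 0.78 to 2.31 TPM in D2A1 against 227 to 1020 TPM in D2.OR. The summed level of 7 luminal epithelial markers was 111 to 311 TPM in D2A1 and 421 to 1720 TPM in D2.OR. Of the others in this list, Cdh1 did not exceed 0.28 TPM in D2A1 and was at 8.93 to 183 TPM in D2.OR, Epcam did not exceed 0.17 TPM in D2A1 or 5.42 TPM in D2.OR, and Cldn3 ran the other way, at 5.92 to 16.5 TPM in D2A1 and 2.0 to 9.82 TPM in D2.OR. The summed level of 6 mesenchymal and fibroblast markers was 1620 to 3500 TPM in D2A1 and 3590 to 6540 TPM in D2.OR, with Vim at 733 to 3140 and 2830 to 5310 TPM. Pdgfra, Pdgfrb and Col1a1 also had their highest values in D2.OR. Fn1 and Dcn had theirs in D2A1. Fn1 was at 281 to 2710 TPM in D2A1 and 640 to 1620 TPM in D2.OR, and Dcn at 0.15 to 6.89 and 0.48 to 4.61 TPM. The part of these markers in the differences between the lines was not tested. The summed level of 5 immune markers was 0.02 to 0.74 TPM, and that of 3 endothelial markers was 0.09 to 0.42 TPM.

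Trp53 lies on chromosome 11 of GRCm38 (69580359 to 69591873, plus strand), head to head with Wrap53 (69561758 to 69580255, minus strand). The stretch between the annotated starts is shown because a single short region separates both genes, whose levels differed between the cell lines in opposite directions. It spans chr11:69580256-69580358, is given on the plus strand from the RefSeq promoter table of GRCm38.p6, and has an inverted CCAAT box in capitals.

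Gap between Wrap53 and Trp53: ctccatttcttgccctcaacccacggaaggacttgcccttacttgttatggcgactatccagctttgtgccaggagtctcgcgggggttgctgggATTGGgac

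The CCAAT letters (ATTGG on this strand) began 8 bases before the start of Trp53. Of 32851 RefSeq promoter windows cut to the same length, 19.2% held CCAAT on either strand. No match was found in the gap for the TATA box (TATAAA), the E-box (CACGTG) or the GC box (GGGCGG) on either strand, which 5.66%, 3.24% and 25% of these windows held.

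Trp53 was the gene with the widest gap between the cell lines among the 7. In TPM, a transcript abundance that corrects for length and depth, Trp53 was at 14.8, 17.5 and 13.9 TPM in replicates 1 to 3 of D2A1 2D. It was at 17.2, 17.6 and 20.2 TPM in D2A1 3D. In D2.OR 2D it was at 2243, 1599.6 and 1626 TPM, and in D2.OR 3D at 1368, 1292 and 1358 TPM. The lowest D2.OR library thus stood far above the highest D2A1 library, with no overlap in any culture or batch. The group means were 15.4 ± 1.9 TPM in D2A1 2D, 18.3 ± 1.6 TPM in D2A1 3D, 1823 ± 364 TPM in D2.OR 2D and 1339 ± 42 TPM in D2.OR 3D (SD, n = 3 each). The D2.OR 2D value was the most variable, since replicate 1 was higher than the other two. Ranked by TPM, Trp53 was between rank 44 and 105 of all genes in the D2.OR libraries and between rank 6430 and 8106 in the D2A1 libraries. It took 0.124 to 0.213% of all expected counts in D2.OR and 0.00152 to 0.00247% in D2A1.

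**Figure D1:**
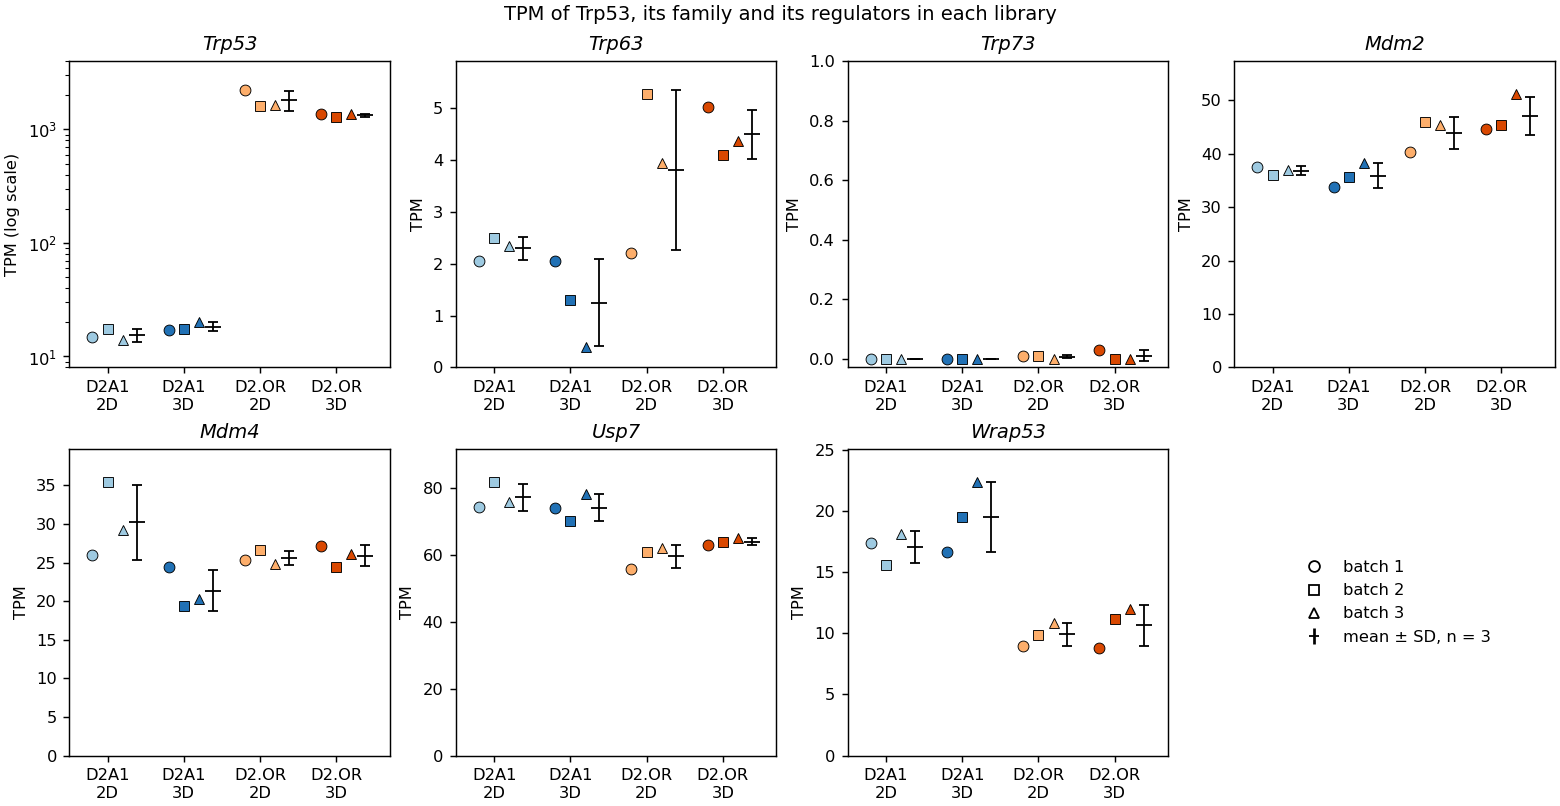
TPM of each of the 7 genes (y axis, log scale for Trp53 and linear for the others) in the 4 groups (x axis), with a point per library, shaped by batch, and the mean ± SD of 3 libraries beside the points. Trp53 lay between 13.9 and 20.2 TPM in all D2A1 libraries and between 1292 and 2243 TPM in all D2.OR libraries, while Trp73 did not exceed 0.03 TPM.

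On the scale of normalized counts, the log2-fold change of Trp53 (D2.OR against D2A1) was 6.80 ± 0.21 (SE) in 2D and 5.96 ± 0.20 in 3D. These values equal ratios of 111 and 62.2. Batch by batch, the log2 difference was 7.14, 6.43 and 6.79 in 2D and 6.06, 6.0 and 5.83 in 3D, so each batch alone gave a difference of this size. The expected counts behind these values were 788 to 1609 per library in D2A1 and 76130 to 156207 in D2.OR. They were whole numbers (within 0.005) in all 12 libraries, which is what RSEM gives when no read is divided between genes, and the processed pseudogene Trp53-ps was listed at 0 counts in every library. Fewer cells with the transcript and less transcript per cell cannot be told apart in such bulk RNA.

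Of the 6 genes that passed the filter on low counts, the fit over all genes called 4 in D2.OR against D2A1 in 2D (Trp53, Mdm2, Wrap53 and Usp7), where it called 49.8% of the 16823 genes tested. The call of Trp53 was known when the genes were chosen. In 3D the same 4 and Trp63 were called, against 53.8% of all genes. Read against these shares, the counts themselves do not set the 6 genes apart from the rest. The TPM of the 6 D2.OR and the 6 D2A1 libraries did not overlap for 4 of the 6 (Trp53, Mdm2, Wrap53 and Usp7), and they did not overlap for 32.3% of all genes tested.

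**Figure D2:**
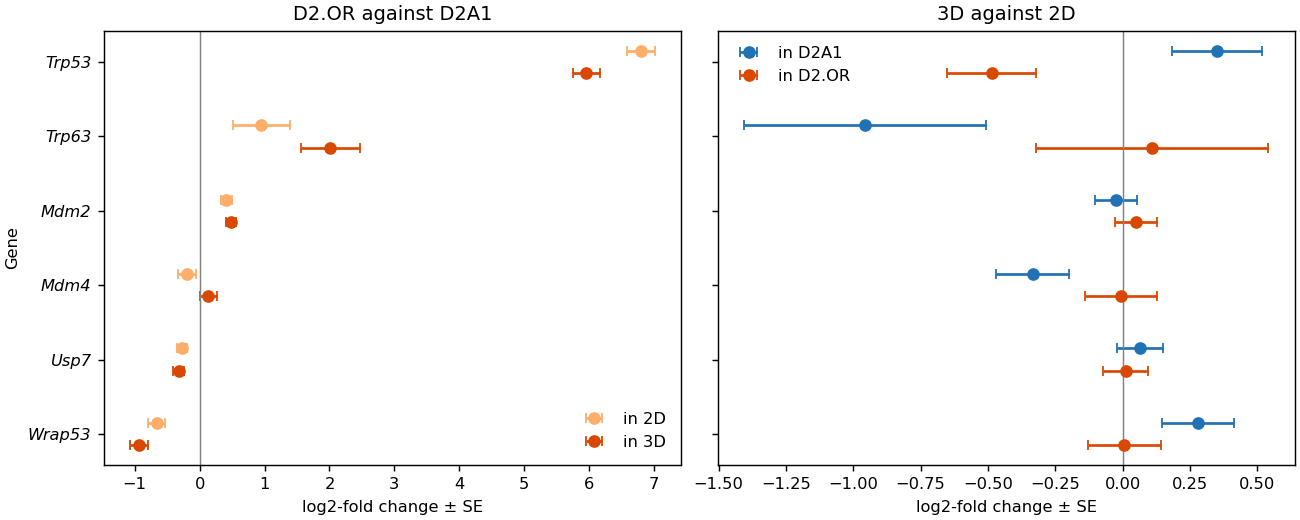
Log2-fold change with its standard error (x axes, of different range) for the 6 genes that passed the filter (y axis), for D2.OR against D2A1 in each culture (left) and for 3D against 2D in each cell line (right). Trp53 stood at 6.80 and 5.96 on the left, all other genes within 2.02 of 0, and all values on the right were within 0.96 of 0.

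The paralogs were low in comparison. Trp63 was at 2.06, 2.5 and 2.34 TPM in D2A1 2D and at 2.06, 1.3 and 0.4 TPM in D2A1 3D. In D2.OR it was at 2.21, 5.28 and 3.95 TPM in 2D and at 5.03, 4.10 and 4.37 TPM in 3D. Only the 3D groups did not overlap. The log2-fold change of Trp63 (D2.OR against D2A1) was 0.95 ± 0.44 in 2D, with overlapping groups, and 2.02 ± 0.45 in 3D. The value in 2D was not called with all libraries. It was called in 5 alternative fits, beside 37.5 to 53.8% of all genes. Among them were those without replicate 1 of D2.OR 2D (1.301), without replicate 1 of D2A1 3D (0.91) and without replicate 3 of D2A1 3D (0.94). The value in 3D was 2.69 without replicate 1 of D2A1 3D, 1.54 without replicate 3 of D2A1 3D and 1.36 with limma on log2(TPM + 1). All of these were called, beside 49.6, 42.5 and 54.0% of all genes. Without the libraries of replicate 2 the value in 3D was 2.11 and no longer called, beside 31.0% of all genes. The lowest library, replicate 3 of D2A1 3D, had 64 counts of Trp63. Trp73 had 0 counts in all D2A1 libraries and 0 to 3 counts in the D2.OR libraries, so no fold is given. Of 6 basal and myoepithelial markers, with which p63 is often found in the mammary gland, Krt5 was at 2 counts or fewer throughout. Krt14 did not exceed 0.11 TPM in D2A1 and was at 0.57 to 6.02 TPM in D2.OR, and Acta2 did not exceed 0.82 TPM in D2A1 and was at 3.35 to 40.1 TPM in D2.OR, the same direction as Trp63. Mylk was at 2.0 to 7.32 TPM in D2A1 and 1.6 to 3.27 TPM in D2.OR. The summed level of the 6 was 2.37 to 8.23 TPM in D2A1 and 7.67 to 43.7 TPM in D2.OR, and its part in the values of Trp63 was not tested.

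Mdm2 was slightly higher in D2.OR. Its level was 37.5, 36.0 and 37.0 TPM in D2A1 2D, 33.7, 35.7 and 38.3 TPM in D2A1 3D, 40.4, 45.9 and 45.4 TPM in D2.OR 2D and 44.6, 45.4 and 51.2 TPM in D2.OR 3D. The ranges of both lines were separate, but by a small margin, 38.3 against 40.4 TPM. The log2-fold change was 0.41 ± 0.08 in 2D and 0.49 ± 0.08 in 3D, or ratios of 1.33 and 1.40, and it was positive in each batch. Without the libraries of replicate 2 the value in 2D was 0.40 and was no longer called. The ratio of Trp53 in 2D was 111.

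Mdm4, which inhibits p53 without degrading it by itself, showed no consistent order of the cell lines. It was at 25.9, 35.5 and 29.3 TPM in D2A1 2D, 24.4, 19.4 and 20.2 TPM in D2A1 3D, 25.4, 26.6 and 24.8 TPM in D2.OR 2D and 27.2, 24.4 and 26.1 TPM in D2.OR 3D. The D2.OR libraries fell inside the range of the D2A1 libraries. The log2-fold changes were -0.19 ± 0.13 in 2D and 0.13 ± 0.13 in 3D. Without replicate 1 of D2A1 2D the value in 2D was -0.36 and was called, beside 51.2% of all genes. Expected counts of Mdm4 were not whole numbers in any library, and the pseudogene Mdm4-ps received 4.03 to 9.13 counts.

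Usp7 was lower in D2.OR, by the smallest margin of the genes called. It was at 74.2, 81.8 and 75.8 TPM in D2A1 2D, 73.8, 70.1 and 78.1 TPM in D2A1 3D, 55.6, 60.9 and 62.1 TPM in D2.OR 2D and 63.0, 63.7 and 65.0 TPM in D2.OR 3D. The log2-fold change was -0.27 ± 0.08 in 2D and -0.32 ± 0.08 in 3D. This call is fragile: leaving out any single replicate number ended it in 2D (-0.24, -0.23 and -0.34 without replicates 1, 2 and 3), and it ended in 3D without replicate 2 (-0.33) or 3 (-0.32). A single library was enough: the call ended in 2D without replicate 2 of D2A1 2D (-0.22) or without replicate 1, 2 or 3 of D2.OR 2D (-0.26, -0.26 and -0.28), and in 3D without replicate 3 of D2A1 3D (-0.29). The sign was negative in all 25 fits of each comparison.

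Wrap53 encodes a protein that brings RNAs to Cajal bodies and telomerase, and an antisense transcript of its locus has been described as a regulator of Trp53 RNA. It was at 17.4, 15.6 and 18.1 TPM in D2A1 2D, 16.7, 19.5 and 22.4 TPM in D2A1 3D, 9.0, 9.89 and 10.9 TPM in D2.OR 2D and 8.78, 11.2 and 12 TPM in D2.OR 3D. All D2.OR libraries lay below all D2A1 libraries, the opposite order to Trp53. The log2-fold change was -0.66 ± 0.14 in 2D and -0.93 ± 0.14 in 3D, and it was negative in each batch. The strand setting of the counting is not given in the sources used here, so antisense reads cannot be told apart from sense reads, although the annotated exons of Wrap53 and Trp53 do not overlap.

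In D2A1 the order of the levels by mean TPM was Usp7, Mdm2, Mdm4, Wrap53, Trp53, Trp63 and Trp73. The library ranges overlapped between Mdm2 and Mdm4, between Mdm4 and Wrap53, and between Wrap53 and Trp53. Trp53 and Wrap53 did not differ beyond their spread there (15.4 ± 1.9 against 17.1 ± 1.3 TPM in 2D, and 18.3 ± 1.6 against 19.5 ± 2.9 TPM in 3D, SD, n = 3). In D2.OR the order was Trp53, Usp7, Mdm2, Mdm4, Wrap53, Trp63 and Trp73, with no overlap between neighbours in this order. The order of the other 6 genes was the same in both lines, and Trp53 alone changed its place.

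Between 2D and 3D the log2-fold changes of Trp53, Mdm2, Usp7 and Wrap53 were smaller than those between the cell lines, whereas that of Mdm4 in D2A1 was larger and that of Trp63 in D2A1 was as large as its cell line difference in 2D. None of the 6 was called for 3D against 2D in D2A1 or in D2.OR, for the interaction of cell line and culture, or for batch 1 against batches 2 and 3 (edgeR), where 3.48, 1.62, 0.0238 and 13.3% of all genes tested were called. Without the batch block the first 3 of these shares were 0.309, 0.119 and 0.0%. At an unadjusted p under 0.05, 1 of the 6 passed in each of these 4 comparisons, beside 31.4, 17.6, 17.8 and 29.1% of all genes. DESeq2 called none of the 6 for culture, 1 for the interaction (Trp53, beside 5.61% of all genes) and 1 for batch (Mdm2, beside 19.9%). The log2-fold change (3D–2D) of Trp53 was 0.35 ± 0.17 in D2A1 and -0.49 ± 0.16 in D2.OR. In D2.OR each 3D library was below each 2D library in TPM, whereas in D2A1 the groups overlapped. That of Trp63 was -0.96 ± 0.45 in D2A1, where its 3 batches gave 0.0020, -1.01 and -2.30, and 0.11 ± 0.43 in D2.OR. Without replicate 1 of D2A1 3D alone the D2A1 value was -1.59 and was called, beside 12.8% of all genes. In D2A1 that of Mdm4 was -0.33 ± 0.13, with each 3D library below each 2D library in TPM, and that of Wrap53 was 0.28 ± 0.13. Both were called there without replicate 1 of D2A1 2D, at -0.50 and 0.42, where 30.3% of all genes were called. In the same fit the interaction of Mdm4 (0.49) and the batch difference of Wrap53 (-0.36) were called, beside 14.5 and 20.6% of all genes. In D2.OR the values of Mdm2, Mdm4, Usp7 and Wrap53 were 0.05, -0.01, 0.01 and 0.01. Yet each 3D library of Usp7 was above each 2D library in TPM there (63.0 to 65.0 against 55.6 to 62.1 TPM). How many of all genes had such separate culture groups was not counted.

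Batch 1 against the mean of batches 2 and 3 gave log2 differences of 0.05 ± 0.12 for Trp53, -0.13 ± 0.06 for Mdm2, -0.09 ± 0.10 for Mdm4, -0.10 ± 0.06 for Usp7, -0.25 ± 0.10 for Wrap53 and 0.10 ± 0.33 for Trp63. The difference between cell lines in Trp53 was thus far larger than any batch difference, and for Wrap53 the batch difference was smaller than the cell line difference in both cultures.

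RSEM also gives, for each gene and library, the mean length of its transcripts weighted by their estimated share. A share has the gene's own level as its denominator, so this readout is not independent of the level by which Trp53 was chosen, and its values for Trp53 are a description. It was compared between the cell lines in the 6 genes that had at least 50 counts in every library. The weighted length of Trp53 was 2021, 2014 and 1981 bases in D2A1 2D and 2020, 1939 and 2015 bases in D2A1 3D. In D2.OR it was 1744, 1756 and 1746 bases in 2D and 1752, 1760.5 and 1764 bases in 3D. All 6 D2.OR libraries were below all 6 D2A1 libraries, by 245 bases on average (1754 ± 8 against 1999 ± 33 bases, SD, n = 6).

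The annotation has 6 Trp53 transcripts with the identifiers of the files. The 4 protein-coding ones are 1771 to 1867 bases long, Trp53-205 is a processed transcript of 3275 bases, and Trp53-204 is a processed transcript of 403 bases. Trp53-205 spans introns 4, 6, 7 and 8 of the coding transcript Trp53-201 (for example chr11:69587633-69588363), and so holds sequence that the coding transcripts splice out. A mean length above 1867 bases can be reached only with a share of Trp53-205, and the D2A1 values required at least 5.14 to 11% of the Trp53 transcripts to be assigned to it. A mean below 1771 bases can be reached only with a share of Trp53-204, and the D2.OR values required at least 0.507 to 1.98%. Both are bounds on what RSEM estimated and not direct measurements of a transcript. In TPM the least amount of Trp53-205 in D2A1 was 0.904 to 2.13 TPM. The highest of these amounts would be 0.0948 to 0.165% of the Trp53 transcripts in the D2.OR libraries, so the lengths do not tell whether its amount differed between the lines.

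**Figure D3:**
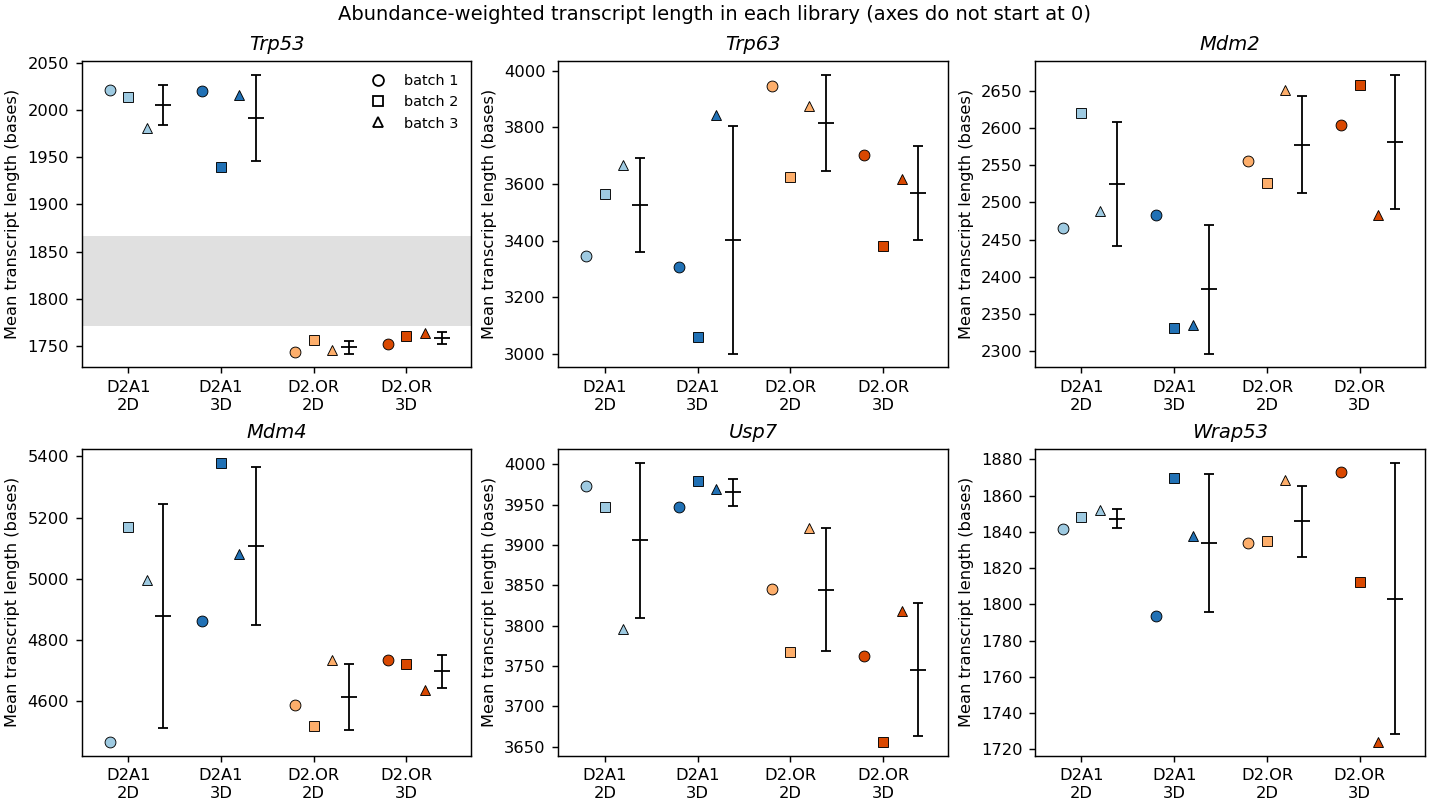
Abundance-weighted transcript length in bases (y axes, not starting at 0) in the 4 groups (x axis) for the 6 genes tested, with a point per library, shaped by batch, and the mean ± SD of 3 libraries. For Trp53 the grey band marks the protein-coding transcripts, 1771 to 1867 bases, and all D2A1 libraries lay above it and all D2.OR libraries below it.

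In an exact two-sided permutation test with the line labels permuted within batches, none of the 6 genes passed after adjustment, and the smallest adjusted p that a single gene can reach in this design is 0.0556. Mdm4 was 337 bases shorter in D2.OR on average (4656 ± 90 against 4993 ± 310 bases) and Usp7 was 140.4 bases shorter (3795 ± 90 against 3936 ± 70 bases), each with p = 0.037 and adjusted p = 0.0741 by the exact permutation test. The adjustment over the 6 genes counts Trp53, whose smaller p lowers these adjusted values. Without the batch block Usp7 had p = 0.0152 and adjusted p = 0.0455 (exact permutation test). That adjustment counts Trp53, which had the smallest p of the 6 and so lowers the adjusted p of Usp7. No pass is therefore given for Usp7, nor for Trp53, whose lengths are a description. Mdm2 was 126 bases longer in D2.OR (exact permutation test, adjusted p = 0.111), Trp63 was 227 bases longer (adjusted p = 0.133, exact permutation test) and Wrap53 differed by 16 bases (adjusted p = 0.639, exact permutation test). In these 5 genes the ranges of both lines overlapped.

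The genes beside Trp53 were read for comparison, as the 10 nearest protein-coding genes on each side in the annotation. Of these 20, 18 were tested and 9 were called in 2D and 10 in 3D, beside 49.8 and 53.8% of all genes. None approached the difference of Trp53: their log2-fold changes lay between -2.41 and 2.02 in 2D and between -1.35 and 1.82 in 3D. The nearest gene on the left was Wrap53. The nearest on the right was Atp1b2, a sodium pump subunit, 7.863 kb away, at 0.46 TPM in D2A1 2D and 0.62 TPM in D2.OR 2D (log2-fold change 0.83 ± 0.39, adjusted p = 0.108 by edgeR). Shbg, the next gene on the right, had at most 1 count in any library.

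**Figure D4:**
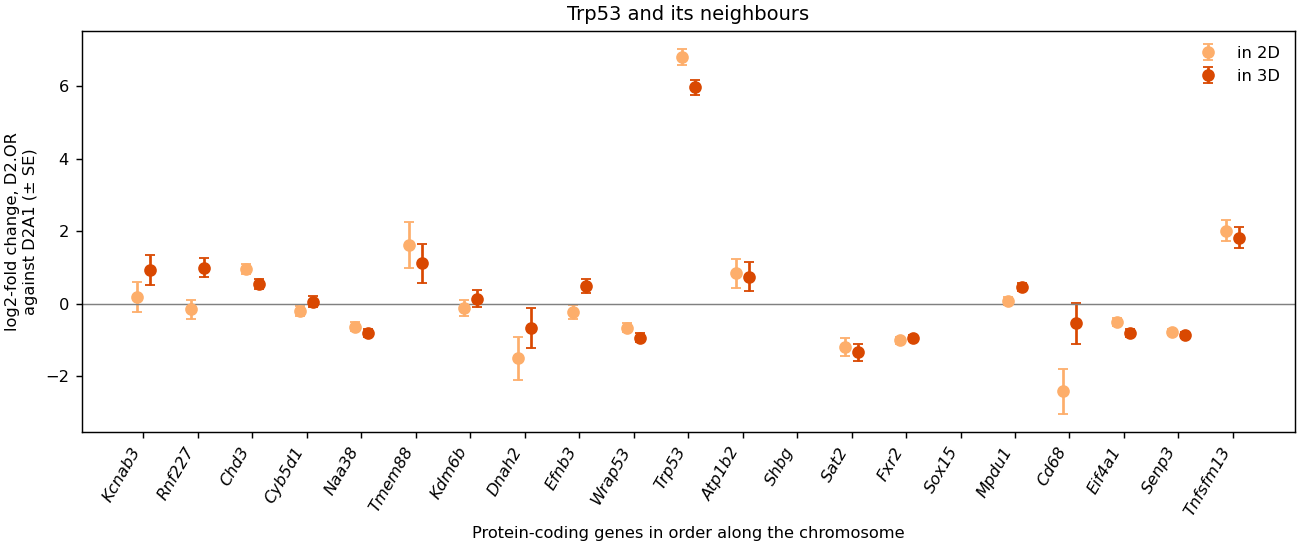
Log2-fold change of D2.OR against D2A1 with its standard error (y axis) for Trp53 and the 10 nearest protein-coding genes on each side, in their order on the chromosome (x axis). Trp53 stood at 6.80 in 2D and 5.96 in 3D, and the 18 neighbours tested stayed between -2.41 and 2.02, with Shbg and Sox15 too low to be tested.

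The genes whose levels most resembled each of the 6 over the 12 libraries are given as a description, by correlations of log2 CPM over the same libraries, which differ in cell line, culture and depth. Trp53 was closest to Esm1 (Pearson r = 0.999), Fbxo27 (0.998) and Patj (0.998). Esm1 was at 0.00 and 0.0067 TPM on average in D2A1 2D and 3D and at 13.8 and 8.77 TPM in D2.OR 2D and 3D. Mdm2 was closest to AC153970.1 (0.983), Mucl1 (0.982) and Hunk (0.981), which were also near 0 in D2A1. Trp63 was closest to Tle2 (0.958), Trappc9 (0.953) and Slx4ip (0.953), and Mdm4 to Paqr3 (0.967), Slc6a9 (0.958) and Gtpbp2 (0.955). The partners of Mdm4 had their highest mean in D2A1 2D and their lowest in D2A1 3D, and Gtpbp2 was at 159 and 61.1 TPM there and at 91.8 and 99.7 TPM in D2.OR 2D and 3D. Wrap53 was closest to Traf3ip1 (0.991), Rbbp4 (0.989) and Ubqln2 (0.989), and Usp7 to Zc3h8 (0.985), Sf3b4 (0.984) and Abcf2 (0.984), all of them lower in D2.OR than in D2A1.

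The wider set of p53 regulators was a list of 48 genes, of which 47 had an entry under the symbol and were tested. In D2.OR against D2A1, 25 of 47 were called in 2D (12 higher and 13 lower) and 27 of 47 in 3D (10 higher and 17 lower), beside 25.4% of all genes called higher and 24.4% lower in 2D, and 27.7% higher and 26.1% lower in 3D. The median log2-fold change of the list was -0.11 in 2D and -0.14 in 3D, against -0.0034 and 0.0005 for all genes. Both directions were thus present and the share called was near that of all genes. The split in 2D depended on the scaling: with library totals alone 8 were higher and 21 lower, beside 20.2 and 32.1% of all genes, and with limma on TPM 9 were higher and 17 lower, beside 20.4 and 30.6%. Without the libraries of replicate 2, 13 regulators were called in 2D and 12 in 3D, beside 24.9 and 31.0% of all genes. No regulator was called for 3D against 2D in either line by edgeR with all libraries. In D2A1, 21 were called without replicate 1 of D2A1 2D, beside 30.3% of all genes, and 5 without replicate 1 of D2A1 3D, beside 12.8%. At an unadjusted p under 0.05 there were 20 in D2A1 and 9 in D2.OR, beside 31.4 and 17.6% of all genes, and DESeq2 called 12 and 4, beside 20.9 and 6.98%.

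Among the kinases and damage sensors, which phosphorylate p53 or relay damage to it, 5 of 9 were called in 2D, 1 higher and 4 lower, beside 49.8% of all genes. Dyrk2, a kinase of p53, was higher in D2.OR (log2-fold change 1.02 ± 0.13, adjusted p = 0.000197 in 2D and 1.31 ± 0.13 in 3D by edgeR), at 17.1 ± 0.6 against 9.39 ± 2.00 TPM in 2D (SD, n = 3). In 3D 5 of 9 were called, 2 higher and 3 lower, beside 53.8% of all genes.

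Among ubiquitin ligases and deubiquitinases other than Mdm2 and Usp7, 7 of 12 were called in 2D, 4 higher and 3 lower, beside 49.8% of all genes. In 3D 6 of 12 were called, 3 higher and 3 lower, beside 53.8% of all genes. Usp28, a deubiquitinase that binds 53BP1, fell from 30.7 ± 2.8 TPM in D2A1 2D to 13.2 ± 1.6 TPM in D2.OR 2D (log2-fold change -1.06 ± 0.12, edgeR adjusted p = 0.000122, SD, n = 3). Cul9, a p53-binding cullin, was higher (3.59 ± 0.50 in 2D), but it was barely expressed, with at most 17 counts in a D2A1 library and 71 in a D2.OR library.

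Of 6 Mdm2 inhibitors, 2 were called in 2D, beside 49.8% of all genes, and 5 were called lower in 3D, beside 26.1% of all genes. Cdkn2a, whose locus encodes the Mdm2 inhibitor Arf and the cell cycle inhibitor p16, was at 596 ± 102 TPM in D2A1 2D and 312 ± 69 TPM in D2.OR 2D (SD, n = 3), and gene counts do not tell its products apart. Its log2-fold change was -0.81 ± 0.10 in 2D (edgeR adjusted p = 0.000158) and -0.77 in 3D, and it was 0.51 ± 0.07 higher in batch 1 than in batches 2 and 3 (edgeR adjusted p = 0.00359). The ribosomal protein gene Rpl11, which binds Mdm2 when ribosome assembly is disturbed, was at 1814 ± 257 TPM in D2A1 3D and 1241 ± 93 TPM in D2A1 2D, a log2 difference of 0.67 ± 0.16 that did not pass the threshold (edgeR adjusted p = 0.0517).

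Among the enzymes that acetylate, deacetylate or methylate p53, 7 of 12 were called in each culture, 4 higher and 3 lower in 2D and 3 higher and 4 lower in 3D, beside 49.8 and 53.8% of all genes. Sirt1, a p53 deacetylase, was at 5.01 ± 1.43 TPM in D2A1 2D and 13.8 ± 3.5 TPM in D2.OR 2D (log2-fold change 1.59 ± 0.17, edgeR adjusted p = 8.27e-05, SD, n = 3). The methyltransferase gene Smyd2 (-0.91 ± 0.12) and the demethylase gene Kdm1a (-0.55 ± 0.08) were lower in D2.OR 2D, and both were also lower in 3D (-0.89 ± 0.12 and -0.73 ± 0.08). From 2D to 3D, the acetyltransferase gene Kat2b differed by -0.54 ± 0.13 in D2A1 and Trim24, a ligase, by -0.58 ± 0.16, with edgeR adjusted p = 0.0548 and 0.0624. In D2.OR, Kdm1a differed by -0.37 ± 0.08 (edgeR adjusted p = 0.0548).

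Of 8 p53 binding cofactors, 4 were called in each culture, 2 in each direction, beside 49.8 and 53.8% of all genes. Trp53bp1, which encodes the damage adaptor 53BP1, was at 42.2 ± 1.1 and 42.7 ± 2.9 TPM in D2A1 2D and 3D and at 24.9 ± 5.3 and 17.0 ± 0.5 TPM in D2.OR 2D and 3D (SD, n = 3). The log2-fold change was -0.77 ± 0.09 in 2D and -1.28 ± 0.09 in 3D (edgeR adjusted p = 0.00018 and 8.98e-06). Its interaction of -0.51 ± 0.13 and its difference of -0.41 ± 0.09 from 2D to 3D in D2.OR did not pass (edgeR adjusted p = 0.142 and 0.0656), nor did the deubiquitinase gene Usp42 (interaction -0.45 ± 0.12, edgeR adjusted p = 0.152). By batch, Ppp1r13b and Daxx were 0.58 and 0.49 higher in batch 1 (edgeR adjusted p = 0.00995 and 0.0133), and 6 of 47 regulators were called in that comparison, beside 13.3% of all genes.

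**Figure D5:**
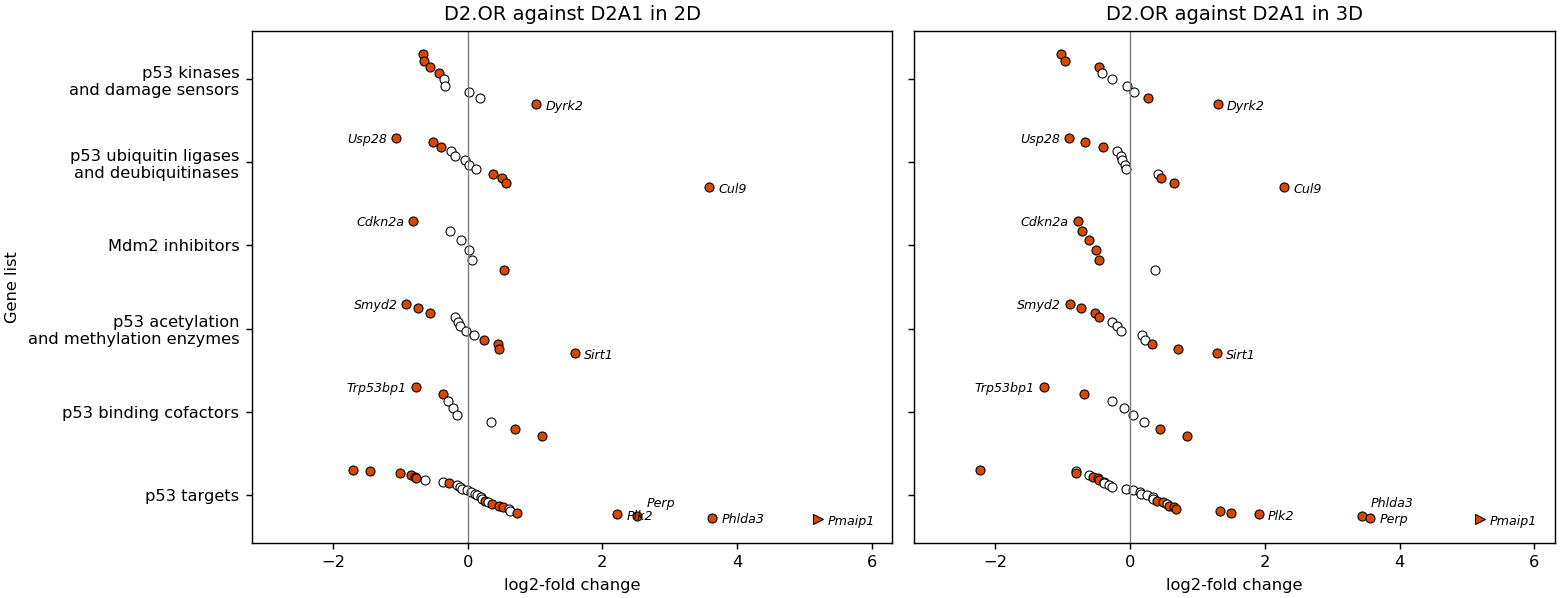
Log2-fold change of D2.OR against D2A1 (x axes) in 2D (left) and 3D (right) for 5 lists of p53 regulators and a list of p53 targets (y axis), with a point per gene, filled where the adjusted p was under 0.05. Both directions appear in each list in 2D, and Pmaip1, drawn as an arrow at the edge, lies beyond the axis.

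The list of 30 p53 target genes had 16 called in 2D (9 higher and 7 lower in D2.OR) and 16 in 3D (11 higher and 5 lower), a share of 53.3% beside the 49.8 and 53.8% of all genes. The median log2-fold change was 0.12 in 2D and 0.21 in 3D. With library totals alone 5 were higher and 8 lower in 2D, beside 20.2 and 32.1% of all genes, and with limma on TPM 6 were higher and 7 lower, beside 20.4 and 30.6%. Without the libraries of replicate 2, 7 were called in 2D and 10 in 3D, beside 24.9 and 31.0% of all genes, and without those of replicate 3, 10 were called in 2D, beside 31.8%. Without replicate 2 of D2.OR 2D alone, 10 were called in 2D, beside 37.4%. A list of this kind had been made on these libraries before, so its direction is not independent evidence. Whether p53 protein acts on these genes in either line was not tested, and the paper proposes that neither line contains functional p53. Pmaip1, which encodes the death protein Noxa, had 2 counts over all D2A1 libraries and 314 to 609 counts in each D2.OR library, a ratio of 1310 per total count (exact 95% interval from 361 to 10800, for counting error only). Phlda3, an Akt inhibitor gene, was at 6.38 ± 0.40 TPM in D2A1 2D and 72.4 ± 14.4 TPM in D2.OR 2D (log2-fold change 3.63 ± 0.23, edgeR adjusted p = 4.3e-06, SD, n = 3). Perp, a desmosome and death gene, differed by 2.51 ± 0.29 in 2D and 3.57 ± 0.30 in 3D, and it was also 1.89 ± 0.20 higher in batch 1 (edgeR adjusted p = 0.00137). Plk2, a kinase gene, differed by 2.22 ± 0.32 in 2D and 1.92 ± 0.31 in 3D.

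Among the other targets, Cdkn1a, which encodes the cell cycle inhibitor p21, was at 33.7 ± 2.2 TPM in D2A1 2D and 40.8 ± 30.3 TPM in D2.OR 2D, and it was at 30.5 ± 13 and 77.2 ± 24.6 TPM in 3D (SD, n = 3). It was called in 3D, with a log2-fold change of 1.34 between the lines, and not in 2D, with 0.20. Its difference from 2D to 3D in D2.OR was 0.99 ± 0.27 (edgeR adjusted p = 0.112). Eda2r, a TNF receptor family gene, was at 1.42 ± 0.66 TPM in D2A1 2D and 0.54 ± 0.18 TPM in D2.OR 2D, with a log2-fold change of -1.44 in 2D and -2.23 ± 0.38 in 3D, both of them called. From 2D to 3D, 2 of 30 targets were called in D2A1, beside 3.48% of all genes: Gadd45a by -2.14 ± 0.43 and the death receptor gene Fas by 1.68 ± 0.38 (edgeR adjusted p = 0.042 and 0.0489). Without replicate 1 of D2A1 2D, 15 targets were called there, beside 30.3% of all genes, and without replicate 1 of D2A1 3D 6 were, beside 12.8%, while leaving out any other single library called 0. Gadd45a was at 129 ± 102 TPM in D2A1 2D and 23.9 ± 2.9 TPM in D2A1 3D (SD, n = 3). Trp53inp1 (-1.60 ± 0.41, edgeR adjusted p = 0.0573) did not pass, and in D2.OR Tnfrsf10b (-0.57 ± 0.16) and Eda2r (-1.17 ± 0.39) did not pass either, where no target was called by edgeR, 5 had an unadjusted p under 0.05 (beside 17.6% of all genes) and DESeq2 called 2 (beside 6.98%). For the interaction the smallest p-values were those of Tnfrsf10b (-0.94 ± 0.23), Gadd45a (2.04 ± 0.59) and Trp53inp1 (1.87 ± 0.57), with edgeR adjusted p of 0.124, 0.159 and 0.167. By batch 4 of 30 targets were called, all higher in batch 1, beside 13.3% of all genes: Perp, Btg2 (1.95, edgeR adjusted p = 0.00345), Sesn1 (0.82, edgeR adjusted p = 0.00858) and Cdkn1a (0.88 ± 0.20, edgeR adjusted p = 0.0216).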

How the data were processed

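RNA-seq libraries (12, of 4 groups with 3 replicates each) were analysed. Per the labels, the authors checked reads with FastQC 0.11.4, trimmed them with Trimmomatic 0.32, aligned them with STAR 2.5.3 to GRCm38 and quantified genes of GENCODE M15 with RSEM 1.3.0. RSEM divides reads that fit several transcripts, so the deposited expected counts and the deposited TPM values are estimates. The deposited tables also hold FPKM, which were not used. The strand setting is not given in the sources used here.

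Expected counts were rounded and fitted with edgeR 4.0.16 (R 4.3.3, quasi-likelihood test, TMM, filter on low counts, 16823 genes kept), with group and batch as terms and Benjamini-Hochberg adjustment over all genes at 0.05. edgeR was used in place of the study's DESeq2, which was an alternative (version 1.42.0), as was limma 3.58.1. Log2-fold changes are on the scale of normalized counts and TPM are per length. Transcript lengths were compared by an exact permutation test. The fits were tested on simulated data. Deviations from the group means correlated by 0.267 (median of 18 pairs) between libraries of the same replicate number and by -0.195 (36 pairs) between others. Deviations cancel out within a group by construction, so a positive value for the same number brings a negative value for the others. The labels mark each number as a batch. The reference annotation was GENCODE M21 on GRCm38, and 1 of 48 regulator symbols had no entry.

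The 7 genes and all lists were chosen with earlier results of these data known. Named genes were, by rule, the 7 genes, the 3 genes most correlated with each, the regulators with the smallest p (8 between the lines in 2D, 3 in every other comparison), the targets likewise (4 and 3), and the nearest neighbours. Npm1, Rpl5, Rpl23 and other list members enter only as counts. Libraries held 47589611 to 73325069 counts, and intervals cover counting error only.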

Additional observations from a re-analysis of the deposited data

Results flagged for a closer look

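The response of Trp53 to the 3D culture was opposite in the cell lines in each batch. In D2A1 the 3D library was above the 2D library in all 3 batches, by 0.24, 0.10 and 0.70 on the log2 scale, and in D2.OR it was below in all 3, by -0.84, -0.33 and -0.25. The difference between the lines (the D2.OR response less the D2A1 response) was -0.84 ± 0.23 (SE). In the fit over all genes it was not called by edgeR, which called 0.0238% of all genes, and it was called by DESeq2 (-0.82), which called 5.61%. Its range over all 24 fits was -1.04 to -0.62. Since Trp53 was chosen for its level in these libraries, these values are a description, and neither call is given as a test of it.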

How the results depend on the processing

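The log2-fold change of Trp53 (D2.OR against D2A1) was 6.58 to 6.98 in 2D and 5.85 to 6.19 in 3D over all 25 fits. Mdm2 stayed positive in both cultures (0.24 to 0.47 and 0.38 to 0.52), and Wrap53 (-0.82 to -0.51 and -1.04 to -0.82) and Usp7 stayed negative. Trp63 ranged from 0.49 to 1.301 in 2D and from 1.36 to 2.69 in 3D. Library totals alone in place of TMM moved the median of all genes by -0.16 in 2D and -0.10 in 3D, and Mdm2 and Usp7 were then at 0.25 and -0.44 in 2D. Usp7 was also not called in 2D with no filter on low counts or with only the 6 libraries compared, and in 3D with limma on TPM.

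DESeq2 called more, also over all genes (20.9, 6.98, 5.61 and 19.9% for culture in D2A1, culture in D2.OR, the interaction and batch): 1 of the 6 genes for the interaction and 1 for batch, 12, 4 and 2 regulators for culture in D2A1, culture in D2.OR and the interaction, 10 regulators for batch, and 9, 2 and 3 targets for culture in D2A1, culture in D2.OR and the interaction. For culture in D2A1, limma called 5 regulators (log2(TPM + 1), 8.23% of all genes) or 6 (log2(TPM + 0.1), 9.28%), and DESeq2 size factors, no filter and a minimum of 10 counts called 1 each (4.68, 3.75 and 5.98% of all genes), and 4 targets were called with no filter. With only the 6 libraries compared, 16 regulators and 9 targets were called between lines in 2D, 0 targets for culture in D2A1, and 1 regulator and 1 target for culture in D2.OR, beside 37.5, 0.0981 and 5.16% of all genes. Without the replicate block, 0 targets were called for culture in D2A1. The calls over all genes fell from 586 to 52 for culture in D2A1, from 273 to 20 in D2.OR and from 4 to 0 for the interaction. In the transcript length test, which was run on the 6 genes alone, 2 genes (Trp53 and Usp7) then fell under the threshold after adjustment. Trp53 is a description there, and its small p lowers the adjusted p of Usp7, so neither is given as a pass. No other count of the 6 genes, regulators or targets changed by over 1.5 times without the block. The cause of these differences was not tested.

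Leaving out a replicate number or a single library at a time (for batch, only a single library) gave, of the 6 genes, 2 to 5 called between lines in 2D, 3 to 5 in 3D, 0 to 3 for culture in D2A1, and 0 to 1 for the interaction and for batch. It gave 13 to 26 regulators between lines in 2D, 12 to 33 in 3D, 0 to 24 for culture in D2A1, 0 to 3 in D2.OR, 0 to 10 for the interaction and 3 to 14 for batch. It gave 7 to 20 targets in 2D, 10 to 22 in 3D, 0 to 16 for culture in D2A1, 0 to 4 in D2.OR, 0 to 10 for the interaction and 3 to 9 for batch. Over all genes these fits called 24.9 to 53.8% between lines in 2D, 31.0 to 59.5% in 3D, 0.0 to 36.3% for culture in D2A1, 0.0 to 8.38% in D2.OR, 0.0 to 17.8% for the interaction and 7.61 to 20.6% for batch. The high counts for culture in D2A1 came without replicate 1, and without the D2A1 2D library of that replicate 21 regulators and 15 targets were called, beside 30.3% of all genes.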
